A study of Homo sapiens with 6 samples.

Results

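The genes described here encode the subunits, activators, inhibitor and assembly chaperones of the proteasome, read as RNA in MOLM-13 cells after 20 nM TSN and after the solvent DMSO. They were taken by symbol, from PSMA to PSMG followed by a number, leaving out PSMB8 and PSMB9, which gave 44 of the 30741 genes in the deposited table. PSMA8 and PSMB11 were not analysed here. MOLM-13 is a human acute myeloid leukaemia line with a fused KMT2A gene and the FLT3-ITD mutation. Cells of both groups are labelled wild type and were kept for 48 h with TSN (3 libraries) or with DMSO alone (3 libraries). The title of the series names toosendanin, a triterpenoid from Melia toosendan, and TSN is read here as its abbreviation. Groups come from the sample titles, since the label for treatment says DMSO for all 6 samples, and the 3 columns without TSN in their name were taken as DMSO because no other group exists, with library numbers as in the column names. The labels call the libraries biological replicates but do not say how the cultures were separated, so p-values measure only the spread between these libraries.

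The proteasome is the protease that degrades proteins tagged with ubiquitin. Its core particle is a barrel of alpha and beta rings, and the beta rings hold the proteolytic sites. A regulatory particle caps the barrel: its base has a ring of ATPases that unfolds the substrate, and its lid removes ubiquitin. Other activators can take the cap's place, and chaperones that are not part of the finished complex assemble core and base. In human cells the transcription factor NFE2L1 is known to raise proteasome genes together when proteasome activity is short, by way of antioxidant response elements in their promoters. Leukaemia cells depend on proteasome activity, and proteasome inhibitors are used in some blood cancers.

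Estimated depth was 37200000 to 50580000 fragments per library, read from the steps of low values. Levels were read as FPKM, a unit that divides fragments by exon length and library size, although the lengths used are not known and the libraries differed in their trend with length. Levels of different genes are therefore compared only coarsely. TSN 3 stood apart: its median gene had 2.97 on the log2(FPKM + 1) scale, and the medians of the other 5 libraries were 3.30 to 3.46. DMSO 1 and DMSO 2 were closest (r = 0.996 over genes on the log2 scale, which describes the libraries only). In fragment counts rebuilt with GENCODE exon lengths and estimated depth, they differed by more than counting error (chi-square 10.2 per degree of freedom, 15159 genes). That value is approximate, since the lengths used for FPKM are not known. All 10 myeloid markers were in the table, and their sum lay at 2189 to 2281 FPKM in TSN against 3575 to 3852 FPKM in DMSO. Most of it was MPO, which fell, with 1989 to 2041 FPKM in TSN and 3413 to 3668 FPKM in DMSO, while ITGAM rose. Of the 9 myeloid markers tested, these were the only calls, 1 higher and 1 lower. MEIS1, at 0.140 to 0.256 FPKM in TSN and 0.215 to 0.469 FPKM in DMSO, was not tested. HOXA9 was also low, at 1.065 to 1.134 FPKM in TSN and 0.613 to 0.663 FPKM in DMSO. The summed erythroid markers, 4 of 5 in the table, lay at 0.0205 to 0.109 FPKM in TSN and 0.0555 to 0.559 FPKM in DMSO. Of 8 epithelial or fibroblast markers, 6 were in the table, and their sum lay at 18.9 to 37.2 FPKM in TSN against 11.1 to 12.7 FPKM in DMSO, mostly KRT18, which rose. CDH1, COL1A1 and DCN were at or near 0. Of 5 lymphoid markers, 4 were in the table and CD3D rose, and their sum lay at 7.63 to 15.8 FPKM in TSN against 6.74 to 8.02 FPKM in DMSO. The part of these markers in the results was not tested. In bulk RNA, fewer cells of a type and less RNA per cell cannot be told apart.

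Most proteasome genes did not pass the test between TSN and DMSO. Of the 44 genes, 41 had at least 1 FPKM in at least 3 libraries and were tested, each with values of that size in both groups. The ATPase gene PSMC2 rose and the lid gene PSMD7 fell, and no other gene passed at a limma adjusted p of 0.05 over all 11440 genes tested. The called share was 4.88% of the proteasome genes, against 14.9% of all genes tested (7.71% higher and 7.2% lower). In 14 of the 41 genes, 7 in each direction, all TSN values lay on 1 side of all DMSO values, which is 34.1% against 39.2% of all genes (16.2% higher and 22.9% lower). At an unadjusted p under 0.05 there were 6 proteasome genes, 14.6% against 30.8% of all genes. The median log2 fold change of the 41 genes was 0.13, against -0.10 over all genes, and 24 of 41 (58.5%) were above 0, against 41.8% of all genes. Without DMSO 3 the median of the 41 genes was 0.02. Calls over all genes ran from 24 without TSN 1 to 2513 without TSN 3, against 1706 with all libraries, and calls among proteasome genes from 0 without TSN 1 or any DMSO library to 3 without TSN 2 or TSN 3. The half-width of the 95% interval ran from 0.27 to 0.96 (median 0.46) on the log2 scale. It corresponds to an unadjusted p of 0.05, and a call at the adjusted threshold needed a larger difference. The intervals of PSMA5, PSMD5, PSMD6 and PSME3 excluded 0, yet these genes were not called. For 28 of the 41 genes the whole interval lay within a log2 fold change of 1 in either direction.

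**Figure D1:**
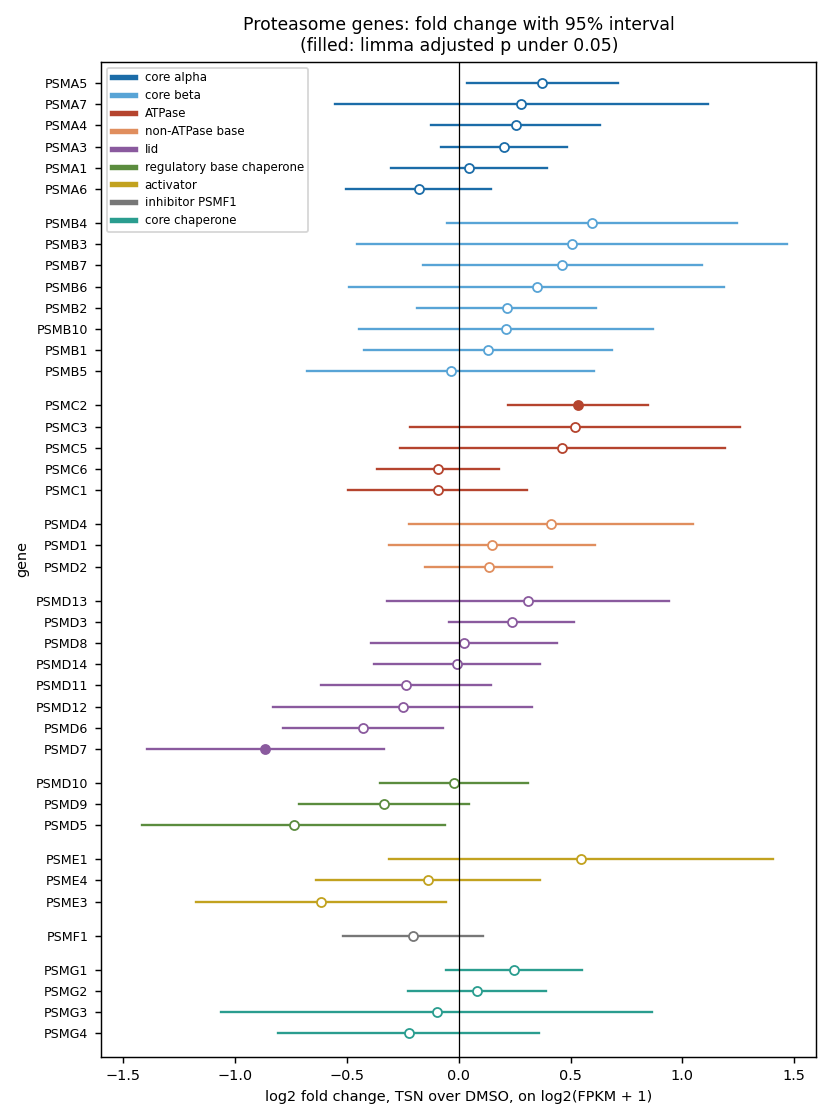
Log2 fold change of TSN over DMSO (horizontal axis, log2(FPKM + 1) scale) for the 41 proteasome genes tested, with 95% intervals from the limma fit, coloured by role. Filled points passed an adjusted p of 0.05: PSMC2 at 0.53 and PSMD7 at -0.87; open points did not.

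PSMC2, an ATPase of the base ring (ENSG00000161057, chromosome 7, 103344254 to 103369395, GRCh38), rose after TSN. It had 50.2, 45.4 and 40.5 FPKM in TSN 1, 2 and 3, against 31.0, 31.7 and 30.1 FPKM in DMSO 1, 2 and 3. Every TSN library lay above every DMSO library, and TSN 3 was the lowest of the TSN libraries. The means were 45.4 ± 4.88 FPKM in TSN and 30.9 ± 0.811 FPKM in DMSO (SD, n = 3). The log2 fold change was 0.53 ± 0.13 SE (limma adjusted p = 0.0396). PSMD7, a lid subunit that pairs with the deubiquitinase PSMD14 (ENSG00000103035, chromosome 16, 74296775 to 74306288), fell. It had 45.7, 47.8 and 28.0 FPKM in TSN 1, 2 and 3, against 68.9, 73.8 and 75.6 FPKM in DMSO 1, 2 and 3. All TSN values lay below all DMSO values, and TSN 3 was far below the other TSN libraries. The means were 40.5 ± 10.9 FPKM in TSN and 72.7 ± 3.47 FPKM in DMSO, and the log2 fold change was -0.87 ± 0.22 SE (limma adjusted p = 0.0461). In GENCODE, 30.7% of the exon bases of PSMD7 lie under a transcript on the other strand, AC009120.2, and the sources used here do not say whether counting used strand, so fragments of the pair cannot be told apart. Both calls were lost when DMSO 1, DMSO 2, DMSO 3 or TSN 1 was left out, with limma adjusted p of 0.125 to 0.181, and that of PSMC2 also without TSN 2 (limma adjusted p = 0.0624). With 1 library left out, the log2 fold change of PSMC2 ran from 0.46 to 0.61, and that of PSMD7 came nearest to 0 without TSN 3, at -0.63.

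The promoters of these genes are shown because PSMC2 and PSMD7 are the only members that passed, and PSMA5 holds the most response element matches. Each runs from 250 bases before to 50 bases after the start of a transcript, from RefSeq (GRCh38.p14), 5′ to 3′ on the gene's strand. Capitals mark matches on either strand to TGACNNNGC or TGAGNNNGC, the core of the antioxidant response element, and to CCAAT, the box bound by NF-Y.
PSMC2, chr7:103347393-103347692, plus strand: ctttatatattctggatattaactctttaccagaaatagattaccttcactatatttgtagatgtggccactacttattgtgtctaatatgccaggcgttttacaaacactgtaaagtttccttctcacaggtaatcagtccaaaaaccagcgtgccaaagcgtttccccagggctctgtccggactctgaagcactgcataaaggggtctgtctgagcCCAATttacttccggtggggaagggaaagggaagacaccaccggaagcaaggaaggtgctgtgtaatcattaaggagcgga
PSMD7, chr16:74296564-74296863, plus strand: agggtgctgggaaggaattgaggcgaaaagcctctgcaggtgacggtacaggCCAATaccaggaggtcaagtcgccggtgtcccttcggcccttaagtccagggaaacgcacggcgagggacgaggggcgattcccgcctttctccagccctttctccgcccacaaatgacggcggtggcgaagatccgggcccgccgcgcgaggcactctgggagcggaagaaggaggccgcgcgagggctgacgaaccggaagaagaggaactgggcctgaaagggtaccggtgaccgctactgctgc
PSMA5, chr1:109426399-109426698, minus strand: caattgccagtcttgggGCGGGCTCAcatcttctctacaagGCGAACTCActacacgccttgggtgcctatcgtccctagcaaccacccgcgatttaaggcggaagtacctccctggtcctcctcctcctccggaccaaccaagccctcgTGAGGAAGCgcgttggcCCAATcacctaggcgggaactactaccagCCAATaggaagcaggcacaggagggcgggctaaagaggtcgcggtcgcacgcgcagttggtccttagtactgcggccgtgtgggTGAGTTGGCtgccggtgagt
PSMA5 holds 4 matches to the response element core and 2 CCAAT boxes, while PSMC2 and PSMD7 each hold 1 CCAAT box and no match to the core in this window. Promoters were listed for 38 of the 44 genes. By gene, 21 of the 38 (55.3%) had at least 1 core match, against 33.7% of all 27305 genes in the promoter table. A CCAAT box was found in 18 of the 38 (47.4%), against 39.7% of all genes. The matches describe these letters only.

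The alpha ring had 0 calls among 6 genes tested, at limma adjusted p from 0.130 to 0.858. It forms the gate and outer rings of the core. PSMA7, the most abundant alpha gene, had 297, 194 and 469 FPKM in TSN 1, 2 and 3, against 292, 269 and 192 FPKM in DMSO 1, 2 and 3. The groups overlapped, with TSN 3 highest and DMSO 3 lowest of the 6 libraries (log2 fold change 0.28 ± 0.35 SE, limma adjusted p = 0.625). PSMA3 had 89.3, 80.5 and 82.8 FPKM in TSN libraries, against 73.2, 75.2 and 70.7 FPKM in DMSO libraries. Its groups did not overlap, but the difference was small (0.20 ± 0.12 SE, limma adjusted p = 0.298). PSMA5 averaged 38.3 ± 4.21 FPKM in TSN and 29.3 ± 2.40 FPKM in DMSO, also without overlap (0.37 ± 0.14 SE, limma adjusted p = 0.130). PSMA1 and PSMA4 overlapped, with log2 fold changes of 0.05 and 0.25. PSMA6 stood at -0.18, and its level, 1.32 FPKM in TSN and 1.61 FPKM in DMSO, was far below that of the other alpha genes tested.

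The beta ring also had 0 calls, among 8 genes tested, while 7 of the 8 had a log2 fold change above 0 (median 0.28), against 41.8% of all genes. Without DMSO 3 and TSN 3, 3 of the 8 were above 0: PSMB1, PSMB3, PSMB6 and PSMB10 then lay below it. PSMB7, the catalytic subunit with trypsin-like activity, had 202, 153 and 282 FPKM in TSN 1, 2 and 3, against 170.5, 159 and 122 FPKM in DMSO 1, 2 and 3. TSN 2 fell inside the DMSO range, and the difference did not pass (0.46 ± 0.26 SE, limma adjusted p = 0.279). PSMB1, a structural subunit, had 172, 131 and 222 FPKM in TSN libraries, against 172, 169 and 131 FPKM in DMSO libraries. The groups overlapped, with TSN 3 the highest and TSN 2 the lowest library (0.13 ± 0.23 SE, limma adjusted p = 0.737). PSMB4, a structural subunit with the highest log2 fold change of all 41 genes, had 159.6, 126 and 243 FPKM in TSN 1, 2 and 3, against 125, 122 and 92.2 FPKM in DMSO 1, 2 and 3. Its lowest TSN value exceeded its highest DMSO value by less than 1 FPKM, and the difference did not pass (0.59 ± 0.27 SE, limma adjusted p = 0.195). PSMB5, the chymotrypsin-like subunit that proteasome inhibitors bind, averaged 116.7 ± 39.3 FPKM in TSN and 116.7 ± 20.3 FPKM in DMSO (-0.04 ± 0.27 SE, 95% interval -0.68 to 0.61). PSMB6, the caspase-like subunit, stood at 0.35, PSMB2 at 0.21, PSMB3 at 0.51 and PSMB10 at 0.21 on the log2 scale. PSMB10, the inducible subunit that replaces PSMB7, averaged 12.1 FPKM in TSN and 10.0 FPKM in DMSO. The other 2 inducible subunits, PSMB8 and PSMB9, were listed at 0 in all DMSO libraries and at no more than 0.0198 FPKM in TSN libraries. The sources used here do not say how reads were assigned. Whether these rows report the transcripts in full was not tested.

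In the base of the regulatory particle, PSMC2 was the only call among 8 genes tested. The ATPases PSMC3 and PSMC5 had log2 fold changes near that of PSMC2, 0.52 ± 0.31 and 0.46 ± 0.30 SE, but overlapping groups and limma adjusted p of 0.302 and 0.346. PSMC6 and PSMC1 stood at -0.09 each, although 75.8% of the exon bases of PSMC1 overlap NRDE2 on the other strand. PSMD4, a ubiquitin receptor, had 223, 167 and 319 FPKM in TSN 1, 2 and 3, against 186, 188 and 143 FPKM in DMSO 1, 2 and 3. The groups overlapped (0.41 ± 0.26 SE, limma adjusted p = 0.337). PSMD2, a scaffold of the base, had 108, 107 and 98.9 FPKM in TSN libraries, against 95.4, 97.3 and 92.0 FPKM in DMSO libraries. Its groups did not overlap, and its log2 fold change was 0.13 ± 0.12 SE (limma adjusted p = 0.483). PSMD1, the other scaffold, stood at 0.15.

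In the lid, PSMD7 was the only call among 8 genes tested. With 5 of 8 genes below 0 and a median of -0.12, the lid was near all genes tested, of which 58.2% were not above 0 (median -0.10). Apart from PSMD7 and PSMD14, the lid genes encode subunits with a PCI domain, which hold the lid together. PSMD6 averaged 18.4 ± 2.58 FPKM in TSN and 25.1 ± 1.59 FPKM in DMSO, without overlap (-0.43 ± 0.15 SE, limma adjusted p = 0.106). PSMD11 also did not overlap (-0.24 ± 0.16 SE, limma adjusted p = 0.358). PSMD14, the deubiquitinase of the lid and partner of PSMD7, averaged 21.4 ± 3.30 FPKM in TSN and 21.4 ± 1.19 FPKM in DMSO, with an interval of -0.38 to 0.36 on the log2 scale. PSMD3 stood at 0.24 and PSMD13 at 0.31, while PSMD8 stood at 0.02 and PSMD12 at -0.25. Summed over base and lid, the regulatory particle had 1127, 964 and 1367 FPKM in TSN 1, 2 and 3, against 1015, 1032 and 876 FPKM in DMSO 1, 2 and 3. The core summed to 1342, 1020 and 1898 FPKM in TSN libraries, against 1258, 1197 and 932 FPKM in DMSO libraries. Both sums were highest in TSN 3 and lowest in DMSO 3, and the groups overlapped. Sums of this kind rest mostly on the most abundant genes.

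**Figure D2:**
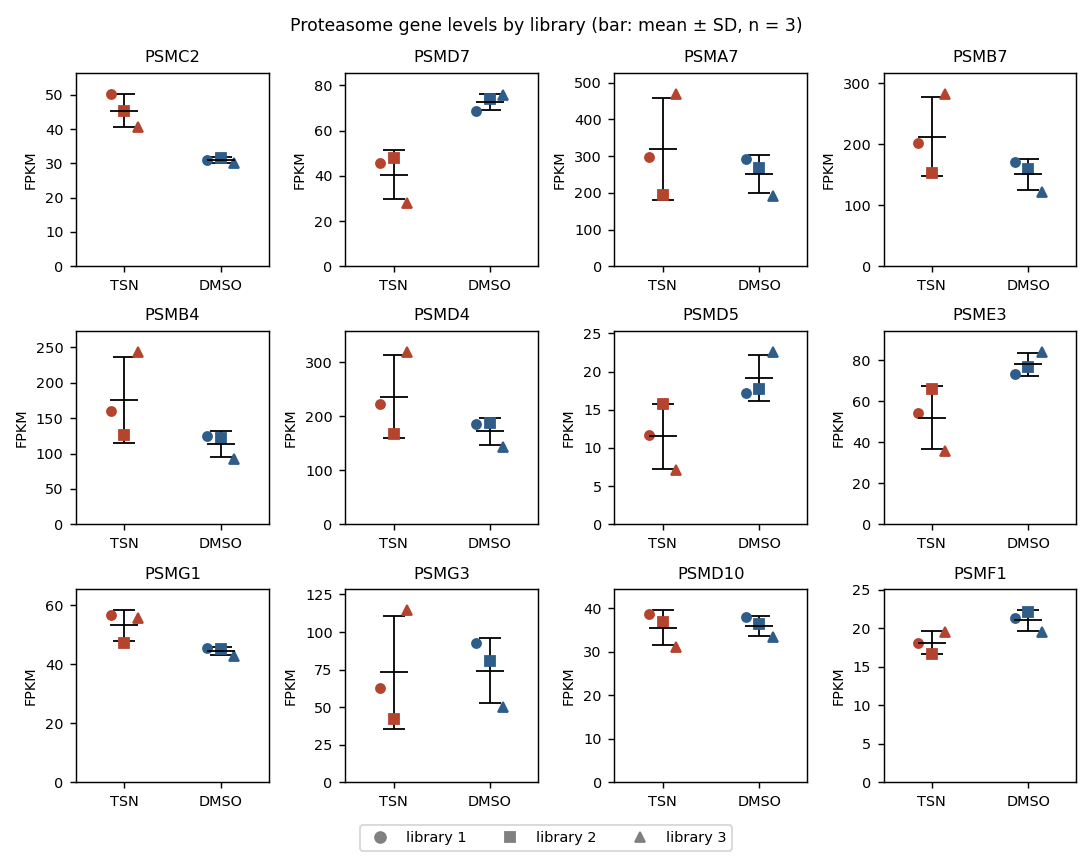
FPKM of 12 proteasome genes in each library, TSN left of DMSO, with the mean and SD of 3 libraries and a marker shape for each library number. TSN 3 is the highest library for PSMA7, PSMB7, PSMB4, PSMD4 and PSMG3 and the lowest for PSMD7, PSMD5, PSME3 and PSMD10.

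Of the 3 chaperones of base assembly, 0 passed the test. PSMD5, which holds ATPase subunits before they join the ring, had 11.7, 15.7 and 7.12 FPKM in TSN 1, 2 and 3, against 17.2, 17.7 and 22.6 FPKM in DMSO 1, 2 and 3. All TSN values lay below all DMSO values (-0.74 ± 0.28 SE, limma adjusted p = 0.136), and the gene passed without TSN 2 (limma adjusted p = 0.0443). PSMD10, also called gankyrin, had 38.7, 36.9 and 31.0 FPKM in TSN libraries, against 38.0, 36.3 and 33.4 FPKM in DMSO libraries. Those groups overlapped (-0.02 ± 0.14 SE, limma adjusted p = 0.938), and the sign of the log2 fold change turned under 7 alternatives. PSMD9 averaged 8.81 ± 1.31 FPKM in TSN and 11.3 ± 0.944 FPKM in DMSO (-0.33 ± 0.16 SE, limma adjusted p = 0.209). It passed without TSN 3 (-0.44, limma adjusted p = 0.0437).

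The 4 chaperones of core assembly had 0 calls. PSMG1 and PSMG2 form a dimer that gathers the alpha ring, and PSMG3 and PSMG4 form a second one. PSMG1 had 56.6, 47.3 and 55.8 FPKM in TSN 1, 2 and 3, against 45.5, 45.2 and 43.0 FPKM in DMSO 1, 2 and 3. All TSN values were higher (0.25 ± 0.13 SE, limma adjusted p = 0.245). PSMG3 had 62.6, 42.2 and 115 FPKM in TSN libraries, against 92.4, 80.5 and 50.3 FPKM in DMSO libraries. TSN 3 was the highest and TSN 2 the lowest of the 6 libraries (-0.10 ± 0.40 SE, limma adjusted p = 0.890), and the sign of its log2 fold change turned under 3 alternatives. Without both DMSO 3 and TSN 3, PSMG3 fell by 0.74 and PSMG4 fell by 0.57 on the log2 scale, with limma adjusted p of 0.0403 and 0.0315. With all libraries, PSMG4 stood at -0.22 and PSMG2 at 0.08.

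Among the alternative activators and the inhibitor, 0 of 4 genes tested passed. PSME3, the nuclear activator, had 54.1, 66.2 and 35.8 FPKM in TSN 1, 2 and 3, against 73.3, 76.6 and 84.1 FPKM in DMSO 1, 2 and 3. The groups did not overlap (-0.62 ± 0.23 SE, limma adjusted p = 0.132), and the gene passed without TSN 2 (limma adjusted p = 0.0462). PSME4, a large nuclear activator, had 10.3, 13.3 and 8.20 FPKM in TSN libraries, against 10.1, 11.3 and 13.6 FPKM in DMSO libraries. Its groups overlapped (-0.14 ± 0.21 SE, limma adjusted p = 0.693). PSME1, a subunit of the interferon-induced activator, had 2.15, 0.994 and 4.34 FPKM in TSN 1, 2 and 3, against 1.41, 1.44 and 0.829 FPKM in DMSO 1, 2 and 3. TSN 2 lay among the DMSO values, and the log2 fold change of 0.55 ± 0.36 SE did not pass (limma adjusted p = 0.347). PSMF1, which inhibits the core in vitro, had 18.1, 16.6 and 19.6 FPKM in TSN libraries, against 21.3, 22.2 and 19.5 FPKM in DMSO libraries. Only TSN 3 and DMSO 3 crossed (-0.21 ± 0.13 SE, limma adjusted p = 0.335).

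Proteasome genes varied within each group, and in TSN 2, TSN 3 and DMSO 3 their deviations correlated with gene length. TSN 2 and TSN 3 were the least alike libraries of the TSN group. They differed by more than the TSN and DMSO means did, on the log2 scale, in 30 of 41 genes (73.2%), near the 68.4% of all genes. TSN 3 was the highest library for 19 of the 41 genes, 46.3% against 22.3% of all genes, and DMSO 3 the lowest for 20 genes, 48.8% against 18.7% of all genes. Each library's deviation from the gene mean was set against exon length in GENCODE 29. Over the 41 genes, Spearman's rho was -0.65 in TSN 3, 0.53 in TSN 2 and 0.67 in DMSO 3, and -0.23, 0.01 and 0.39 in TSN 1, DMSO 1 and DMSO 2. Over the 11245 genes with a length it had the same sign in TSN 3 (-0.38), TSN 2 (0.36) and DMSO 3 (0.35). These values describe the libraries, since the genes share them. Below the median exon length of 4432 bases, 16 of 20 genes had a log2 fold change above 0 (median 0.23), and 8 of the other 21 did (median -0.09). Across the 41 genes, log2 fold change and exon length had a rho of -0.52, which was -0.17 without TSN 3 and 0.10 without TSN 3 and DMSO 3. Over all genes with a length the same rho was -0.14. After each library's trend with length and GC content was removed, PSMC2 (0.62) and PSMD7 (-0.87) were again the 2 genes called. The trend was fitted over all genes, and across the 41 genes the rho with exon length was then -0.28.

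**Figure D3:**
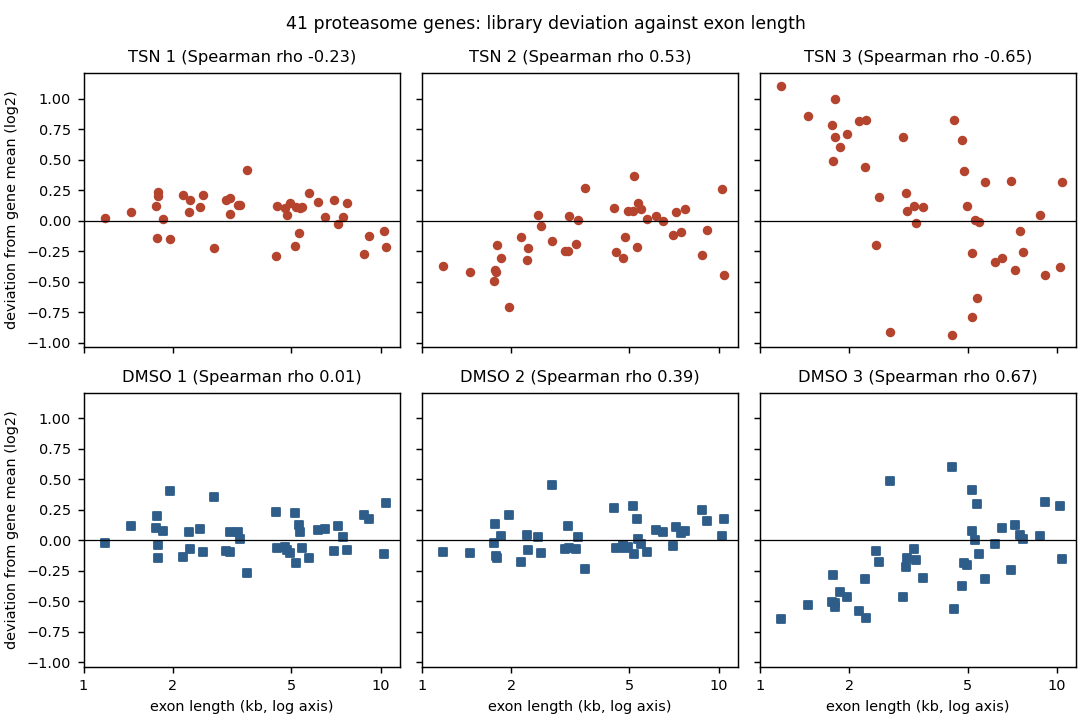
Deviation of each library from the gene's mean over 6 libraries (vertical axis, log2) against exon length (horizontal axis, kb, log axis) for the 41 proteasome genes tested, TSN libraries above DMSO libraries. Of the 20 shorter genes, 17 lie above their mean in TSN 3 (rho -0.65 over all 41), 16 below it in TSN 2 (0.53) and 19 below it in DMSO 3 (0.67), and PSMD7 is among the exceptions in TSN 3 and DMSO 3.

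Levels differed widely between the proteasome genes. Over all 6 libraries, 9 of the 44 genes averaged at least 100 FPKM and the median gene 36.9 FPKM, while 5 averaged under 2 FPKM. These 5 were PSMA2 (0.587 FPKM), PSMC4 (0.660 FPKM), PSME2 (0.670 FPKM), PSMA6 (1.46 FPKM) and PSME1 (1.86 FPKM). PSMC4, an ATPase that every base ring contains, had 0.577, 0.734 and 0.710 FPKM in TSN 1, 2 and 3, against 0.984, 0.589 and 0.368 FPKM in DMSO 1, 2 and 3. PSMA2, an alpha subunit of every core, had 0.655, 0.497 and 0.301 FPKM in TSN libraries, against 0.583, 0.653 and 0.833 FPKM in DMSO libraries. Both overlapped between groups, and with PSME2 they were the 3 genes not tested. In GENCODE, 34.6% of the exon bases of PSMA2 and 14.1% of those of PSMA6 overlap another gene, 8.2% for PSME2, 0.5% for PSME1 and 0 for PSMC4. For PSMA6 (14.1%) and part of PSMA2 (14.6%) the other gene is protein-coding and on the same strand. By exact name, GENCODE lists 3 pseudogenes of PSMA2, 4 of PSMA6, 2 of PSME2 and 0 of PSME1 and PSMC4. It lists 13 of PSMC1, which averaged 16.7 FPKM. Such counts can miss copies. The deposited table names PSME2P1, PSME2P2, PSME2P3, PSME2P4 and PSME2P6, and it names PSMC2P1 although the count for PSMC2 was 0. The ATPase genes other than PSMC4 averaged from 16.7 FPKM (PSMC1) to 195 FPKM (PSMC3). Whether the rows of low genes such as PSMC4 and PSMA2 report their transcripts in full was not tested. Nor was the part of overlaps and pseudogenes in these levels tested.

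**Figure D4:**
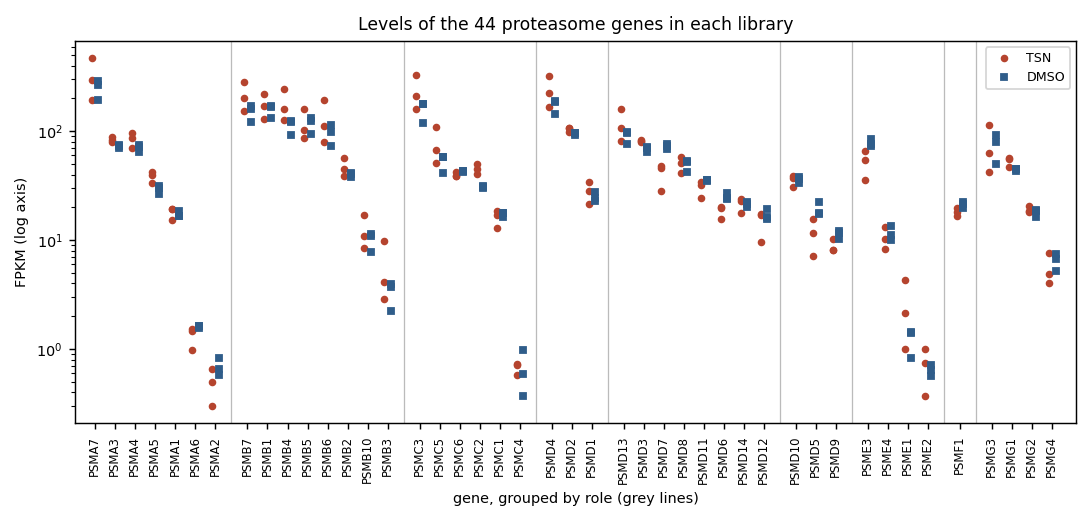
FPKM (vertical axis, log axis) of the 44 proteasome genes in each library, TSN circles left of DMSO squares, grouped by role between grey lines in the order alpha, beta, ATPase, base, lid, base chaperones, activators, PSMF1 and core chaperones. Most genes lie above 10 FPKM, and PSMA2, PSMA6, PSMC4, PSME1 and PSME2 average under 2 FPKM.

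Genes that work with the proteasome mostly did not pass either. Of 18 associated proteins, such as ubiquitin shuttles and deubiquitinases of the cap, 0 rose and 0 fell by limma, against 14.9% of all genes called, and the median was -0.11. An unadjusted p under 0.05 was reached by 1 of the 18, against 30.8% of all genes. POMP, the maturation factor of the core, had 96.8, 70.0 and 119.9 FPKM in TSN 1, 2 and 3, against 70.5, 68.3 and 55.6 FPKM in DMSO 1, 2 and 3 (0.53 ± 0.22 SE, limma adjusted p = 0.168). Its TSN 2 value lay within the DMSO range, and it passed without TSN 2 (limma adjusted p = 0.0439) and after removal of the length and GC trend (limma adjusted p = 0.0314). ADRM1, a ubiquitin receptor of the base, had 76.7, 62.4 and 108 FPKM in TSN libraries, against 58.9, 64.0 and 42.5 FPKM in DMSO libraries. Its TSN 2 value also lay within the DMSO range (0.56 ± 0.25 SE, limma adjusted p = 0.194). Of 6 genes of ubiquitin supply, 0 passed by limma and 0 reached an unadjusted p under 0.05, against the same shares of all genes. RPS27A, which encodes ubiquitin fused to a ribosomal protein, had 903, 603 and 1598 FPKM in TSN 1, 2 and 3, against 1014, 914 and 626 FPKM in DMSO 1, 2 and 3 (0.19 ± 0.39 SE, limma adjusted p = 0.767). UBB, a polyubiquitin gene, had 398, 325 and 434 FPKM in TSN libraries, against 359.7, 358 and 314 FPKM in DMSO libraries (0.16 ± 0.17 SE, limma adjusted p = 0.566). In both genes TSN 3 was highest and the groups overlapped.

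In the NFE2L1 pathway, 2 of 13 genes rose and 0 fell, against 7.71% and 7.2% of all genes. The median log2 fold change of the list was -0.24, against -0.10 over all genes. In the list 10 of 13 genes were below 0, and 58.2% of all genes tested were not above 0. The 2 calls ran against the sign of most genes of the list, which also holds NFE2L2 and KEAP1. NFE2L1 itself had 46.4, 64.9 and 24.2 FPKM in TSN 1, 2 and 3, against 62.5, 64.9 and 81.5 FPKM in DMSO 1, 2 and 3. TSN 3 was far lower than the other libraries, TSN 2 lay within the DMSO range, and the difference did not pass (-0.71 ± 0.35 SE, limma adjusted p = 0.226). UFD1, a cofactor of the segregase VCP in extracting proteins from the endoplasmic reticulum, had 25.0, 25.1 and 24.7 FPKM in TSN libraries, against 16.4, 16.8 and 15.9 FPKM in DMSO libraries. The groups were tight and did not overlap (0.58 ± 0.12 SE, limma adjusted p = 0.0222). MAFF, a small MAF protein that binds DNA as a partner of NFE2L1 and its relatives, had 7.41, 6.70 and 6.23 FPKM in TSN 1, 2 and 3, against 1.97, 1.88 and 1.91 FPKM in DMSO 1, 2 and 3. All TSN values were higher (1.41 ± 0.13 SE, limma adjusted p = 0.0027). MAFG and MAFK, the other small MAF genes, stood at -0.31 and -0.52 and did not pass (limma adjusted p = 0.241 and 0.255). The call of UFD1 was lost without DMSO 1, DMSO 2, DMSO 3 or TSN 1 (limma adjusted p from 0.103 to 0.127), and that of MAFF without TSN 1 (limma adjusted p = 0.0540).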

How the data were processed

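The authors deposited a table with a value per gene for 6 libraries of MOLM-13 cells. Its values were taken as FPKM, a unit read from the values, since the deposited table does not name it. The submitters' processing notes name GRCh38 and DESeq2 1.26.0, a count-based test that FPKM do not allow. For aligner, counter, use of strand and gene lengths, the sources used here name nothing.

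On the log2(FPKM + 1) scale, limma 3.58.1 (R 4.3.3) with trended, robust moderation compared the groups for every gene that reached 1 FPKM in 3 or more libraries. P-values were adjusted by Benjamini-Hochberg over all 11440 genes. Fold changes on this scale understate the change of low genes. Depth came from steps of low values in single-exon genes, of which 95.4% to 96.8% were whole within 0.1 fragment; over all genes 65.2% to 69.0% were, so no count test was run. Lengths, GC and overlaps came from GENCODE 29.

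The members and lists were chosen with earlier results of these data known. All members are accounted for. Values by library were given, per role, for called genes of lowest adjusted p or else the 2 of highest mean, and for the 3 highest and 3 lowest fold changes; other members were named after their values were seen. Alternatives covered pseudocounts of 0.1 and 0.01, other filters (none, or a mean of at least 5 FPKM), scalings, plain moderation, library weights, libraries left out, a replicate block and removal of length and GC trends (splines of 5 degrees of freedom). Python 3.11.15, pandas 2.3.3, numpy 2.4.6 and matplotlib 3.10.9 served for tables and figures.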

Additional observations from a re-analysis of the deposited data

How the results depend on the processing

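Of the proteasome genes, 1 was higher and 1 lower with pseudocounts of 0.1 and 0.01, median log ratio scaling, quantile normalization, plain moderation and removal of the length and GC trend. Under these alternatives, in the order given, 14.6%, 14.4%, 17.4%, 19.7%, 16% and 26.6% of all genes tested were called, against 14.9% in the main fit. With no filter, where that share was 2.53%, 0 proteasome genes were higher and 0 lower. At a mean of at least 5 FPKM, where it was 13.5%, 0 proteasome genes were lower (PSMD7, limma adjusted p = 0.0515). With 1 library left out, 0 to 1 rose and 0 to 3 fell, and without both DMSO 3 and TSN 3, 4 fell. Calls over all genes numbered 1706, 777 with no filter, 1002 at a mean of at least 5 FPKM, 24 to 2513 with 1 library left out, 2978 without both and 2990 after trend removal. Of the associated genes, 2 rose and 0 fell; 1 rose with no filter and 1 at a mean of at least 5 FPKM, which leaves MAFF untested, 0 to 3 rose and 0 to 1 fell with 1 library left out, 1 fell without both and 2 fell after trend removal. The median log2 fold change of the proteasome genes was 0.24 after median log ratio scaling, where that of all genes moved from -0.10 to 0.00, 0.02 to 0.16 with 1 library left out, and 0 without both. Among uncalled proteasome genes, 18 changed sign under at least 1 alternative, each with an absolute log2 fold change of at most 0.51.

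Library weights, estimated gene by gene after the default estimate failed to converge, chosen after seeing the data, ran from 0.097 (TSN 3) to 7.67 (TSN 1). They gave 7079 calls over all genes, 61.9% of those tested, and 13 higher and 10 lower of the 41 proteasome genes. Of the associated genes, 8 were higher and 10 lower, in a fit that rests mostly on 3 libraries. With the column number as a replicate block, 0 genes passed in all (2121 at an unadjusted p under 0.05), 0 proteasome genes rose, 0 fell and 0 associated genes rose. Over genes, same-numbered deviations from the group means correlated at -0.32, -0.65 and -0.83. With deviations centred on 3 libraries per group, a smaller shared effect would not show, so whether the numbers pair the libraries is not known. Estimated depth sets 1 fragment on 1 kb at 0.0198 to 0.0269 FPKM; what limits the width of the intervals was not tested.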

Other observations

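Processed pseudogenes of 2 proteasome genes were listed above the genes they derive from in FPKM, which divides by length. In GENCODE 29 the exon lengths are 741 bases for PSMA6P1 and 6506 for PSMA6, and 720 for PSME2P1 and 3582 for PSME2. The order in FPKM is therefore not an order in fragments. PSMA6P1 had 3.08, 2.35 and 2.79 FPKM in TSN 1, 2 and 3, against 3.17, 2.66 and 3.27 FPKM in DMSO 1, 2 and 3, while PSMA6 averaged 1.32 FPKM in TSN and 1.61 FPKM in DMSO. PSME2P1 averaged 3.08 ± 0.946 FPKM in TSN and 2.04 ± 0.224 FPKM in DMSO, while PSME2 averaged 0.700 ± 0.313 FPKM in TSN and 0.640 ± 0.0753 FPKM in DMSO. PSMC1P1 averaged 1.70 FPKM in both groups, against 16.3 FPKM in TSN and 17.2 FPKM in DMSO for PSMC1. The sources used here do not say how reads shared by near-identical copies were assigned. These pairs were chosen after their values were seen.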
